A study of Homo sapiens with 8 samples.

Results

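The 10 genes described here encode homeodomain or basic helix-loop-helix (bHLH) transcription factors that pattern the neural tube. They were chosen by name from the gene symbols of the array, with earlier results of these data known. They comprise PAX6, PAX3, PAX7, IRX3, IRX5, OLIG3, NKX6-1, NKX2-2, DBX1 and GBX2, of 19426 genes named in all. All 10 were among the 18732 genes tested. RNA was measured in NTera2/D1, a human embryonal carcinoma line that differentiates when given retinoic acid (RA), on Affymetrix Human Exon 1.0 ST arrays. The 4 groups were cells with an siRNA against RNF20 and RA, cells with the control siRNA siLacZ and RA, cells with the RNF20 siRNA and DMSO, and cells with siLacZ and DMSO. RA was given at 10 µM, the design text states 72 hours of stimulation, and every group, the controls included, carries an siRNA. Each group has 2 arrays, described as biological duplicates and carrying the number GF117 or GF120. All arrays come from 1 cell line, so the comparisons describe that line.

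In the embryo the neural tube is divided along its dorsal to ventral axis into progenitor domains, each marked by its own combination of such factors. Sonic hedgehog from the floor plate turns on ventral factors such as NKX2-2 and NKX6-1 and confines PAX6, IRX3, PAX3 and PAX7 to more dorsal cells, while signals from the roof plate favour dorsal factors such as OLIG3. Retinoic acid made by the somites is known, mainly from chick and mouse embryos, to promote PAX6, IRX3 and DBX1 in the spinal cord. RNF20 is the E3 ligase that places monoubiquitin on histone H2B.

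The start-site windows of 3 members that passed a test below are printed as the DNA context of those genes. RefSeq on GRCh38.p14 gave windows of 300 bases, from 250 before to 50 after a start, for 8 of the 10 members and 17 windows in all. For PAX6, with 9 starts, the most upstream is shown. The windows of PAX6 at chr11:31817912-31818211, OLIG3 at chr6:137494345-137494644 and GBX2 at chr2:236168337-236168636 all lie on the minus strand. Each reads 5′ to 3′ along the gene, and capitals mark the motifs that a search found.
PAX6 window: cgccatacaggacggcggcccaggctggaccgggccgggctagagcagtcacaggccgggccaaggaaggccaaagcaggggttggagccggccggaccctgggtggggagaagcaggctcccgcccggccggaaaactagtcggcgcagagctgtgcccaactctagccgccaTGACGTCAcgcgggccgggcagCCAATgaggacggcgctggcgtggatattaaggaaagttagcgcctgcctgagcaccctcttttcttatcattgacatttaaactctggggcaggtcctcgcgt
OLIG3 window: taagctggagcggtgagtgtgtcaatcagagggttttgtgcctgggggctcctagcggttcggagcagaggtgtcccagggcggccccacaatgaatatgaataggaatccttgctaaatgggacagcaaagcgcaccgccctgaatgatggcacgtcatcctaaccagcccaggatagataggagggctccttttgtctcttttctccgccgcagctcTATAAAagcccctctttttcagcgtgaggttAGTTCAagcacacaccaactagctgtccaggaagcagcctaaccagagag
GBX2 window: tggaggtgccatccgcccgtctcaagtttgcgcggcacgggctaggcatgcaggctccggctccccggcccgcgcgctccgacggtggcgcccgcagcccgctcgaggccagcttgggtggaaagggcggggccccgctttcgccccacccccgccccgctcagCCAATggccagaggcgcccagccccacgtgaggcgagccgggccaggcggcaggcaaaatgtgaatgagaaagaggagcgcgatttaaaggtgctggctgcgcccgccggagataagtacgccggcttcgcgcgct
The search covered both strands. It looked for the nuclear receptor half-sites AGGTCA and, with 1 letter changed, AGTTCA. It also looked for the TATA box as TATAAA, for the CCAAT box as CCAAT, and for the cAMP response element as TGACGTCA. No motif of the search contains another. The PAX6 window held TGACGTCA at position -76 and CCAAT at -54. The OLIG3 window held TATAAA at -31 and AGTTCA at 1, the start itself, and the GBX2 window held CCAAT at -86. Of all 35116 windows of that length, 13.8% held AGGTCA, 10.4% AGTTCA, 11.5% TATAAA, 34.6% CCAAT and 1.85% TGACGTCA. PAX6 alone has 9 of the 17 windows of the members. Among these 17, 0 held AGGTCA, 5 AGTTCA (in 4 members), 3 TATAAA (in 3), 9 CCAAT (in 7) and 1 TGACGTCA. The motifs were chosen with the sequences in view, so these counts are a description and no test. A match describes the letters and is not a measured binding site.

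One array stood apart from the other 7. The GF117 array labelled RA and siLacZ correlated with the others at 0.078 to 0.185 across genes, while the others correlated among themselves at 0.908 to 0.974. RNF20 itself was at 6.27 and 5.89 log2 intensity in siRNF20 cells with RA and at 6.48 and 5.98 in siRNF20 cells with DMSO. In siLacZ cells RNF20 was at 8.10 on the GF120 array with RA and at 8.24 and 8.09 with DMSO. The GF117 array with RA read 6.08, near the median gene value of the other arrays (6.34 to 6.5). As that array followed no other array, its RNF20 reading is given as a value only. Because of the low correlations the tests used 7 arrays, and the RA siLacZ group is then 1 array, assumed to vary like the others. RNF20 was 4.06-fold lower with siRNF20 in RA (adjusted p = 0.11, limma) and 3.83-fold lower in DMSO (adjusted p = 0.237, limma). Levels are log2 of the deposited intensity, as the median over a gene's probe sets, and they compare a gene across arrays, never 1 gene with another. Where nothing else is said, an adjusted p is from limma over the 18732 genes, and a gene below 0.05 is called.

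PAX6, a paired-domain and homeodomain factor of intermediate and ventral progenitors, had the largest RA difference of the 10 members in both siRNA backgrounds. In siRNF20 cells PAX6 was at 7.07 and 7.23 with RA, against 4.08 and 4.06 with DMSO. In siLacZ cells PAX6 was at 7.63 with RA on the GF120 array, against 4.01 and 4.16 with DMSO. The RA arrays all lay above the DMSO arrays, by more than the 0.15 or 0.16 that separated duplicates. PAX6 rose 8.43-fold in siRNF20 cells (log2 change 3.08, SE 0.23, adjusted p = 0.000135) and 11.7-fold in siLacZ cells (log2 change 3.54, SE 0.29, adjusted p = 0.000231). The GF117 array labelled RA and siLacZ read 6.61, near the median gene value of the other arrays (6.34 to 6.5), and is given as a value only. With that array included, so that all 8 were fitted, the log2 change was 3.08 in siRNF20 cells (adjusted p = 0.207) and 3.03 in siLacZ cells (adjusted p = 0.154), and no gene of the array was called.

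**Figure D1:**
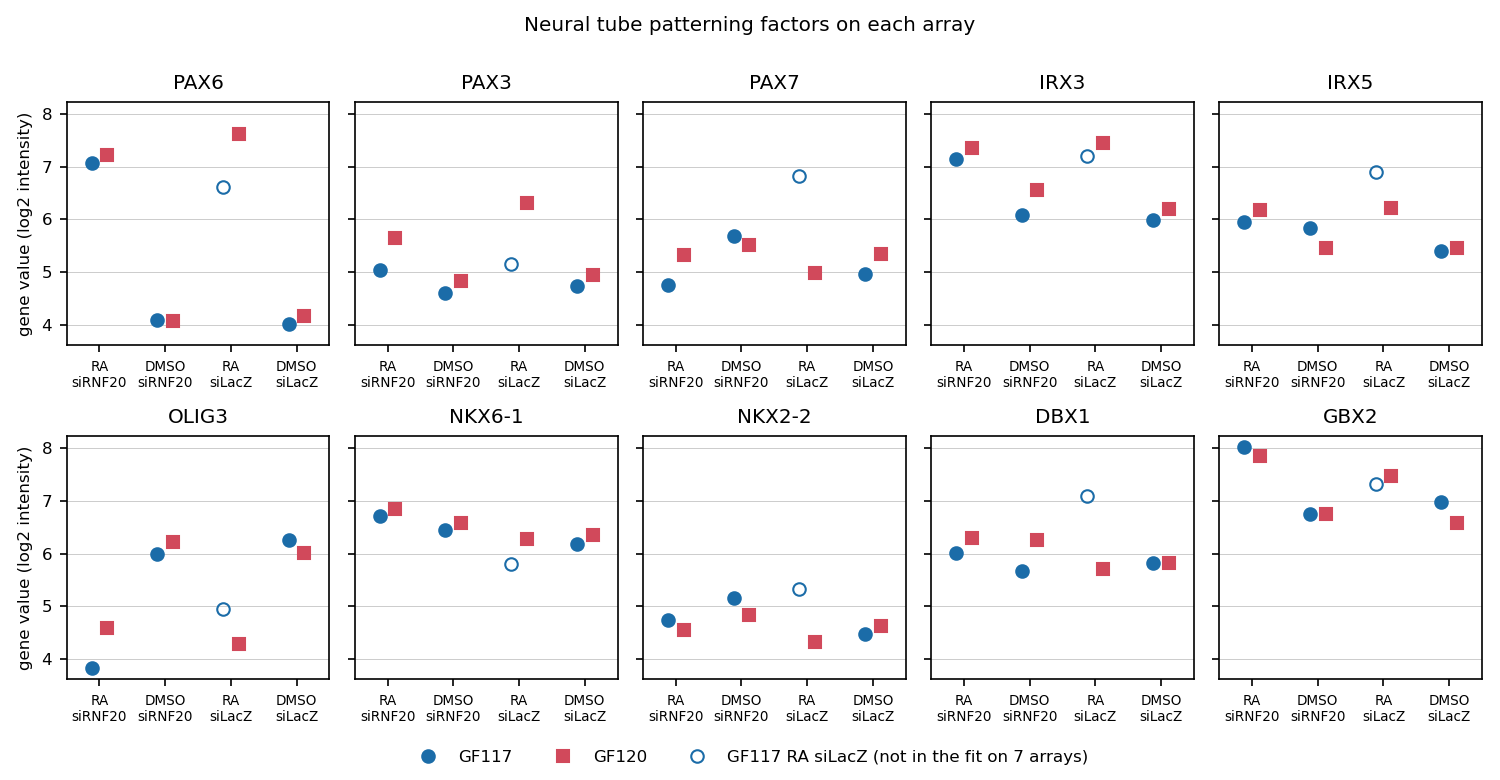
Gene values of the 10 factors, in log2 intensity, on each of the 8 arrays, with circles for GF117 and squares for GF120. PAX6 sits between 7.07 and 7.63 on the 3 RA arrays that were tested and between 4.01 and 4.16 on the 4 DMSO arrays, and the open circle is the array left out of the tests.

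The array carries 47 probe sets for PAX6, of which 37 passed the filter on dim rows. The filter took the mean over RA and DMSO arrays alike, so a probe set could pass through its RA arrays alone. Probe set 3368057, at 1.00 to 1.45 on the DMSO arrays, is an example. Of all 47, dim ones included, 45 were higher with RA in siRNF20 cells and 44 in siLacZ cells. Without the filter the log2 change of PAX6 was 2.96 in siRNF20 cells and 3.79 in siLacZ cells. Of the 37 that passed, 36 were higher with RA than with DMSO in siRNF20 cells, with a median difference of 2.64 and a range of -0.13 to 7.71 in log2. In siLacZ cells 35 of 37 were higher with RA, with a median of 3.79 and a range of -0.38 to 8.58. The PAX6 probe sets therefore spread widely around the value of the gene. Probe set 3368073 had the largest difference in both backgrounds. It was at 9.56 and 9.57 in siRNF20 cells with RA, against 1.00 and 2.70 with DMSO, and at 10.31 in siLacZ cells with RA, against 1.54 and 1.91 with DMSO. By contrast, probe set 3368109 of PAX6, chosen after its values were seen, was at 9.78 and 9.76 in siRNF20 cells with RA, against 9.18 and 9.70 with DMSO, and at 9.41 in siLacZ cells with RA, against 9.79 and 9.47 with DMSO. The first is at or near the lowest deposited intensity without RA, while the second is bright on every array. Between 2 and 5 of the 47 PAX6 probe sets sat at the lowest deposited intensity on each DMSO array, and 0 did so on each RA array. Differences of those probe sets are bounded by that floor.

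IRX3 and IRX5 are Iroquois homeodomain factors that lie next to each other on chromosome 16, and in the spinal cord IRX3 marks progenitors dorsal to the motor neuron domain. In siRNF20 cells IRX3 was at 7.14 and 7.36 with RA, against 6.08 and 6.56 with DMSO. In siLacZ cells IRX3 was at 7.45 with RA, against 5.99 and 6.19 with DMSO. The RA arrays lay above the DMSO arrays in both backgrounds, and the gap between duplicates reached 0.49. IRX3 rose 2.56-fold in siLacZ cells (log2 change 1.35, SE 0.28, adjusted p = 0.0287), and in siRNF20 cells it was 1.91-fold higher (log2 change 0.93, SE 0.23, adjusted p = 0.0594). The first call was lost when either DMSO siLacZ array was left out, which leaves 1 RA array against 1 DMSO array. The log2 change was then 1.25 without GF117 and 1.46 without GF120, and fewer genes of the array were called. Fitted on all 8 arrays, the IRX3 differences were 0.93 in siRNF20 cells (adjusted p = 1) and 1.24 in siLacZ cells (adjusted p = 0.44).

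All 12 probe sets of IRX3 passed the filter, and 11 of them were higher with RA in siRNF20 cells and 10 in siLacZ cells. Probe set 3692301 of IRX3 had the largest difference in siRNF20 cells. It was at 9.72 and 10.23 in siRNF20 cells with RA, against 5.79 and 6.86 with DMSO, and at 9.93 in siLacZ cells with RA, against 6.38 and 6.46 with DMSO. At the other end, the lowest differences were -0.68 in siRNF20 cells (3692298) and -1.19 in siLacZ cells (3692304). For 8 of the 12 the 3 RA arrays all lay above the 4 DMSO arrays. IRX5 was at 5.96 and 6.17 in siRNF20 cells with RA, against 5.83 and 5.45 with DMSO, and at 6.22 in siLacZ cells with RA, against 5.40 and 5.46 with DMSO. These values did not overlap between treatments, but the nearest pair differed by less than the 0.38 between the DMSO siRNF20 duplicates. IRX5 did not pass in siRNF20 cells (log2 change 0.43, SE 0.24, adjusted p = 0.459) or in siLacZ cells (log2 change 0.79, SE 0.29, adjusted p = 0.205). Over all 8 arrays IRX5 had differences of 0.43 in siRNF20 cells (adjusted p = 1) and of 1.13 in siLacZ cells (adjusted p = 0.44).

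PAX3 and PAX7 are closely related paired-box factors of dorsal progenitors, of neural crest and of muscle precursors. PAX3 was at 5.03 and 5.64 in siRNF20 cells with RA, against 4.60 and 4.82 with DMSO, and at 6.31 in siLacZ cells with RA, against 4.74 and 4.95 with DMSO. The RA arrays lay above the DMSO arrays, but PAX3 missed the threshold in siLacZ cells (log2 change 1.46, SE 0.36, adjusted p = 0.0577). In siRNF20 cells PAX3 was 1.54-fold higher with RA (log2 change 0.63, SE 0.29, adjusted p = 0.353). The PAX3 differences with all 8 arrays were 0.63 in siRNF20 cells (adjusted p = 1) and 0.88 in siLacZ cells (adjusted p = 0.44).

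Of the 20 probe sets of PAX3, 11 were dim and left out of its value. In siRNF20 cells 9 of these 11 were higher with RA than with DMSO (median difference 1.25), and in siLacZ cells 11 of 11 were (median difference 2.84). Without the filter, PAX3 was at 4.01 and 4.55 in siRNF20 cells with RA, against 3.02 and 4.28 with DMSO, and at 5.69 in siLacZ cells with RA, against 3.10 and 3.82 with DMSO. At the stricter filter on dim rows its RA difference was smaller, at 0.18 in siRNF20 cells (adjusted p = 0.856) and 0.33 in siLacZ cells (adjusted p = 0.703), and with the mean over rows it was 0.45 (adjusted p = 0.504) and 0.99 (adjusted p = 0.175) in the same order. The value of PAX3 thus depends on which probe sets enter it, in both directions. PAX7 was at 4.75 and 5.32 in siRNF20 cells with RA, against 5.68 and 5.52 with DMSO. In siLacZ cells PAX7 was at 4.98 with RA, against 4.96 and 5.35 with DMSO. Treatments overlapped for PAX7 across backgrounds, and neither difference passed (log2 change -0.56, SE 0.29, adjusted p = 0.419 in siRNF20 cells and -0.18, SE 0.36, adjusted p = 0.881 in siLacZ cells). The GF117 array labelled RA and siLacZ read 6.83 for PAX7, the highest of the 8. With all 8 arrays the PAX7 difference in siLacZ cells had the opposite sign, at 0.74 (adjusted p = 0.501), and in siRNF20 cells it was -0.54 (adjusted p = 1). Probe sequences were not used here, so that signal shared between PAX3 and PAX7 probe sets was not tested.

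OLIG3, a bHLH factor of dorsal progenitors, was the member that fell with RA. OLIG3 was at 3.82 and 4.58 in siRNF20 cells with RA, against 6.0 and 6.23 with DMSO. In siLacZ cells OLIG3 was at 4.28 with RA, against 6.25 and 6.02 with DMSO. The 3 RA arrays that were tested lay below the 4 DMSO arrays. The GF117 array labelled RA and siLacZ read 4.94, with single probe sets of OLIG3 from 2.79 to 7.42, and is given as a value only. OLIG3 fell 3.77-fold in siRNF20 cells (log2 change -1.92, SE 0.30, adjusted p = 0.00709) and 3.61-fold in siLacZ cells (log2 change -1.85, SE 0.37, adjusted p = 0.0248). All 5 of its probe sets were lower with RA in both backgrounds, with differences of -2.32 to -0.57 in siRNF20 cells and of -1.84 to -1.15 in siLacZ cells. The siLacZ call was lost without either DMSO siLacZ array, and the siRNF20 call without the GF120 DMSO siRNF20 array. Each of these fits leaves 1 DMSO array in the comparison. In siLacZ cells the log2 change was then -1.74 without GF117 and -1.97 without GF120. OLIG3 differences with all 8 arrays were -1.92 in siRNF20 cells (adjusted p = 0.56) and -1.52 in siLacZ cells (adjusted p = 0.44).

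GBX2 is a homeodomain factor that sets the boundary of midbrain and hindbrain from its posterior side, opposite OTX2. GBX2 was at 8.03 and 7.86 in siRNF20 cells with RA, against 6.76 and 6.75 with DMSO, and at 7.48 in siLacZ cells with RA, against 6.99 and 6.58 with DMSO. The RA arrays again lay above the DMSO arrays. GBX2 rose 2.29-fold in siRNF20 cells (log2 change 1.20, SE 0.21, adjusted p = 0.0112) and was 1.62-fold higher in siLacZ cells (log2 change 0.69, SE 0.25, adjusted p = 0.202). All 7 of its probe sets were higher with RA in both backgrounds, and for 5 of the 7 the 3 RA arrays lay above the 4 DMSO arrays. The siRNF20 call was lost without either DMSO siRNF20 array, which leaves 1 DMSO array in the comparison. Over the fits that left out 1 array, the log2 change in siRNF20 cells ran from 1.11 to 1.28. The GBX2 differences with all 8 arrays were 1.20 in siRNF20 cells (adjusted p = 1) and 0.61 in siLacZ cells (adjusted p = 0.447).

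**Figure D2:**
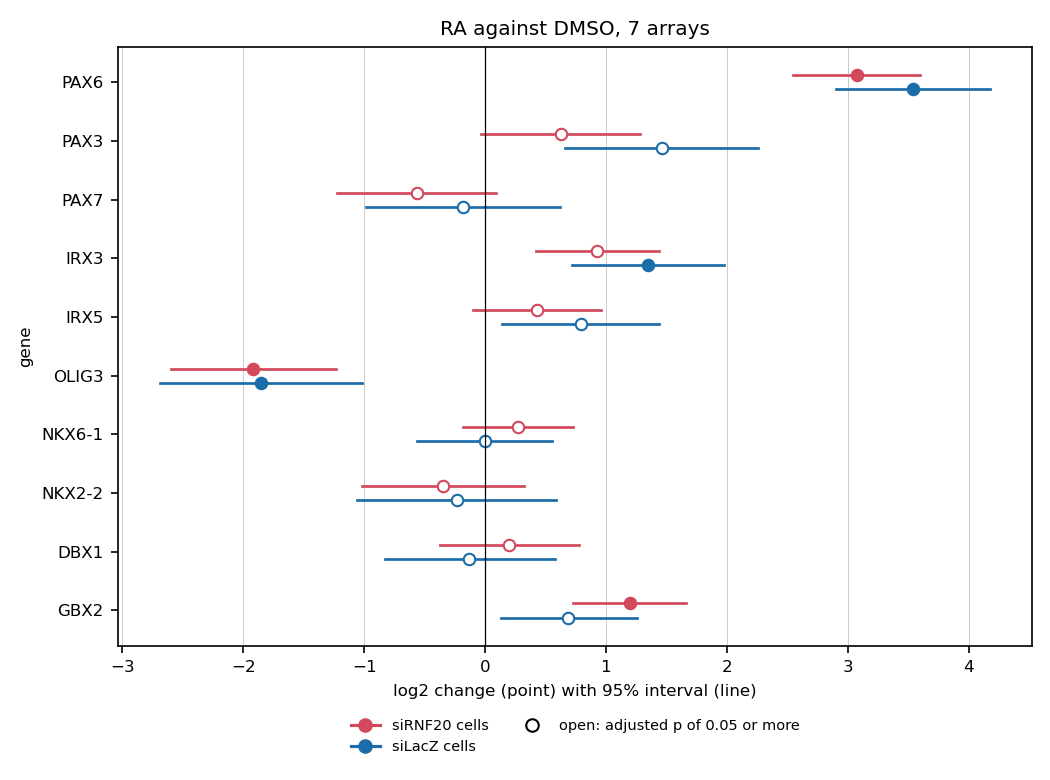
Log2 change with RA against DMSO for each of the 10 factors in siRNF20 cells and in siLacZ cells, from the fit on 7 arrays, with 95% intervals as lines and filled points for an adjusted p below 0.05. PAX6 at 3.08 and 3.54 and OLIG3 at -1.92 and -1.85 are filled in both backgrounds, GBX2 in siRNF20 cells and IRX3 in siLacZ cells.

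NKX6-1, NKX2-2 and DBX1 mark ventral and intermediate progenitors, and NKX6-1 and NKX2-2 also act in pancreatic endocrine cells. NKX6-1 was at 6.72 and 6.84 in siRNF20 cells with RA, against 6.44 and 6.58 with DMSO, and at 6.27 in siLacZ cells with RA, against 6.18 and 6.36 with DMSO. NKX2-2 was at 4.74 and 4.54 in siRNF20 cells with RA, against 5.15 and 4.83 with DMSO, and at 4.32 in siLacZ cells with RA, against 4.47 and 4.63 with DMSO. DBX1 was at 6.02 and 6.30 in siRNF20 cells with RA, against 5.66 and 6.26 with DMSO, and at 5.70 in siLacZ cells with RA, against 5.82 and 5.83 with DMSO. For each of these 3 genes the RA and DMSO arrays overlapped across backgrounds. None of the 3 passed in siRNF20 cells, where the log2 changes were 0.27 for NKX6-1 (interval -0.18 to 0.73), -0.35 for NKX2-2 (-1.02 to 0.32) and 0.20 for DBX1 (-0.37 to 0.78), with adjusted p from 0.626 to 0.822. In siLacZ cells the log2 changes were 0.00 for NKX6-1 (interval -0.56 to 0.55), -0.23 for NKX2-2 (-1.06 to 0.59) and -0.13 for DBX1 (-0.83 to 0.58), with adjusted p from 0.839 to 0.999. These intervals are at the 95% level. Leaving out the GF117 array of DMSO siLacZ cells gave -1.55 for NKX2-2 in siLacZ cells, outside the printed interval. The filter was then taken anew, and probe set 3900556 of NKX2-2, at 1.03 on that array, entered the median. On the GF120 arrays with the 2 probe sets of the main fit, the NKX2-2 difference was -0.31. With all 8 arrays, where the array left out read 5.81 for NKX6-1, 5.33 for NKX2-2 and 7.10 for DBX1, the siLacZ differences were -0.23, 0.27 and 0.57 in that order (adjusted p = 0.68, 0.683 and 0.496), and in siRNF20 cells they were 0.27, -0.35 and 0.20 (adjusted p = 1 for each).

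The value of DBX1 rests on 4 of its 5 probe sets. The fifth, which was dim, was higher with RA by 3.03 in siRNF20 cells and by 3.65 in siLacZ cells, and on it the 3 RA arrays lay above the 4 DMSO arrays. NKX2-2 rests on 2 of 6 probe sets, the fewest of the 10 members. For NKX6-1, 5 of 6 probe sets entered, and probe set 2776318 was at 7.57 and 8.54 in siRNF20 cells with RA, against 6.72 and 6.62 with DMSO, and at 6.27 in siLacZ cells with RA, against 6.92 and 6.76 with DMSO. No probe set of NKX6-1 or NKX2-2 separated the RA arrays from the DMSO arrays.

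**Figure D3:**
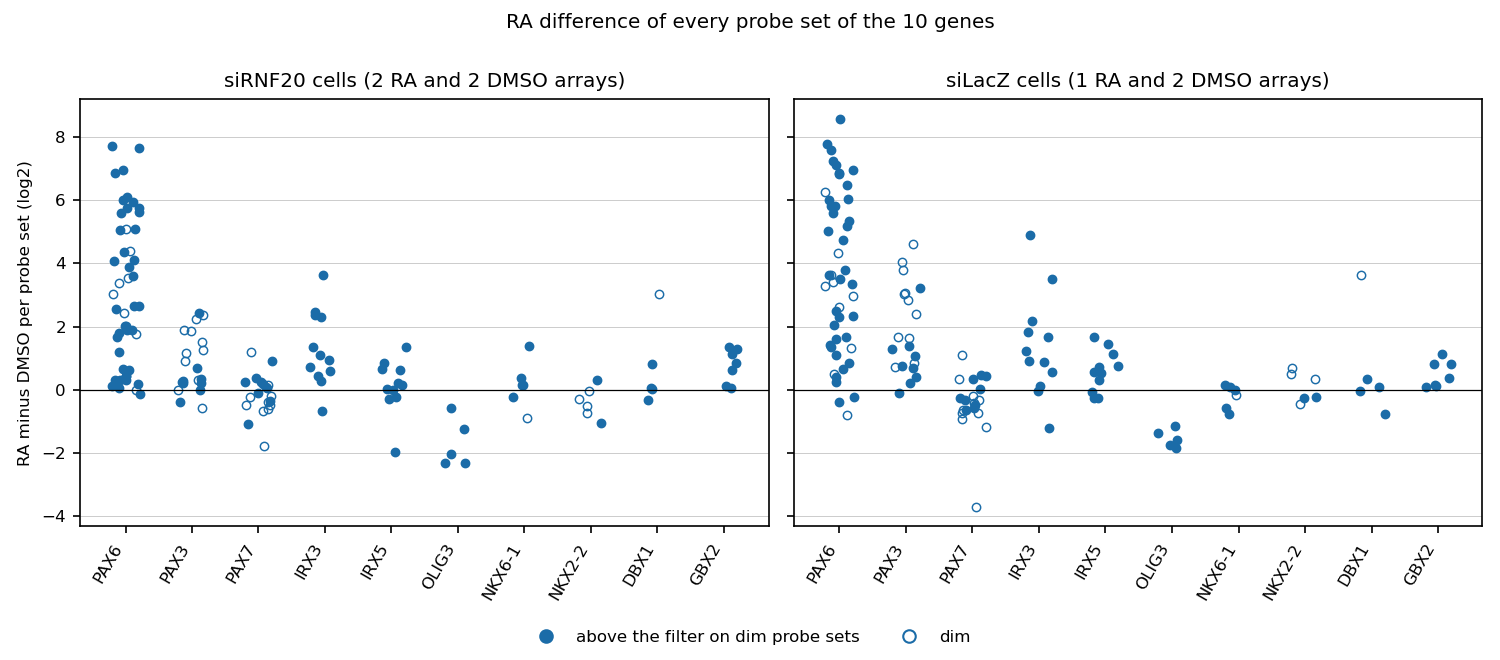
RA minus DMSO in log2 for every probe set of the 10 factors, in siRNF20 cells (2 RA and 2 DMSO arrays) and in siLacZ cells (1 RA and 2 DMSO arrays), with open circles for dim probe sets left out of the gene values. PAX6 spreads from -0.13 to 7.71 in siRNF20 cells and from -0.78 to 8.58 in siLacZ cells, and the 5 OLIG3 points lie below 0 in both.

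Counted over the members, 3 of 10 were called in each background in the fit of 4 group means, which has no block for the GF number. In siRNF20 cells these were PAX6 and GBX2, higher, and OLIG3, lower, where 3.92% of the genes tested were called, 1.79% higher and 2.13% lower. In siLacZ cells they were PAX6 and IRX3, higher, and OLIG3, lower, where 3.91% of the genes were called, 1.88% higher and 2.03% lower. The median log2 change of the 10 members was 0.35 in siRNF20 cells and 0.35 in siLacZ cells, beside -0.03 and -0.05 over the genes tested. As the members were chosen with earlier results of these data known, the shares and medians set side by side here are a description and no test. The RA siLacZ array tested carries GF120, while the DMSO siLacZ group holds both numbers, so that comparison is not balanced over the GF number. In each group with 2 tested arrays the GF117 array read lower, by 0.20 to 0.49 for IRX3 and by 0.21 to 0.61 for PAX3. With the GF number as a block their siLacZ differences were 1.20 and 1.29, and more members were called, as given below. In 5 members (PAX6, PAX3, IRX3, IRX5 and GBX2) all 3 RA arrays lay above all 4 DMSO arrays, which held for 8.07% of the genes, and in 1 (OLIG3) they lay below, which held for 12.6%. By probe set, the RA arrays lay above for 36 of 47 of PAX6, 7 of 20 of PAX3, 8 of 12 of IRX3, 3 of 11 of IRX5, 5 of 7 of GBX2 and 1 of 5 of DBX1, beside 6.3% of all named probe sets. They lay below for 5 of 5 of OLIG3 and 1 of 20 of PAX7, beside 8.56%. Between bulk RNA samples, fewer cells that express a gene and less RNA per cell cannot be told apart.

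No member passed when siRNF20 cells were compared with siLacZ cells. The same tests did not call RNF20 itself, 3.83-fold lower in DMSO and 4.06-fold lower in RA. The lack of a call is therefore not a sign of no change. With DMSO 0 of the 10 members and 0% of the genes were called by limma, although 519 genes had an unadjusted p below 0.05, of which 0 were members. The 10 log2 changes of siRNF20 over siLacZ lay between -0.13 (PAX3) and 0.44 (PAX7 and NKX2-2), with a median of 0.17 beside -0.01 over the genes tested. PAX6 differed by -0.01 (interval -0.54 to 0.51), OLIG3 by -0.02 (interval -0.70 to 0.66) and IRX3 by 0.23 (interval -0.29 to 0.74). For PAX6 and OLIG3 the DMSO arrays of both siRNAs overlapped.

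With RA 0 of the 10 members were called, and 2 genes (0.0107%) were, GJA1 (log2 change 1.51, adjusted p = 0.0474) and CCDC190 (log2 change 3.35, adjusted p = 0.0474), both higher in siRNF20 cells and named because they are the whole count. PAX3 was the member whose unadjusted value passed 0.05, at 5.03 and 5.64 in siRNF20 cells, against 6.31 in siLacZ cells (log2 change -0.97, SE 0.36, interval -1.77 to -0.16, adjusted p = 0.562, limma). Among the dim probe sets of PAX3, 11 of 11 were lower in siRNF20 cells with RA than in the siLacZ array with RA, with a median difference of -1.84. At the stricter filter, by contrast, the PAX3 difference was 0.02 (adjusted p = 0.99), and with the mean over rows -0.38 (adjusted p = 0.807). Leaving out 1 array gave -0.35 without the GF117 RA siRNF20 array and -1.27 without the GF120 RA siRNF20 array. PAX6 was at 7.07 and 7.23, against 7.63 (log2 change -0.48, interval -1.12 to 0.16, adjusted p = 0.728), and 35 of its 47 probe sets were lower in siRNF20 cells. NKX6-1 was at 6.72 and 6.84, against 6.27 (log2 change 0.52, interval -0.04 to 1.07, adjusted p = 0.646), and GBX2 at 8.03 and 7.86, against 7.48 (log2 change 0.47, interval -0.10 to 1.03, adjusted p = 0.697). Each of these differences, and each count of probe sets, rests on a single siLacZ array with RA. Probe sets of 1 gene share the arrays, so their counts are a description and add no replicates. With all 8 arrays the difference was -0.39 for PAX3 (adjusted p = 0.642), 0.03 for PAX6 (adjusted p = 0.968), 0.75 for NKX6-1 (adjusted p = 0.546) and 0.55 for GBX2 (adjusted p = 0.55).

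**Figure D4:**
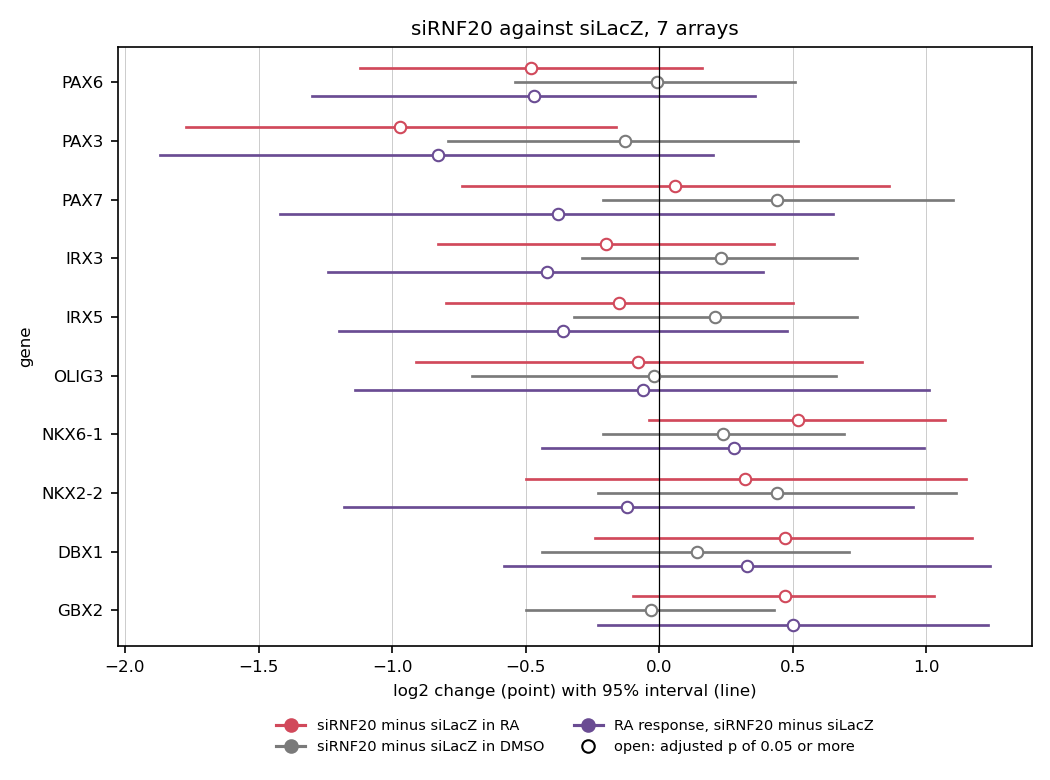
Log2 change of siRNF20 over siLacZ in RA and in DMSO, and the interaction (the RA response in siRNF20 cells less that in siLacZ cells), for each of the 10 factors with 95% intervals. Every point is open, and PAX3 at -0.97 in RA is the one whose interval lies clear of 0.

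Whether the RA response itself differed between backgrounds was tested as an interaction, for which 0% of the genes and 0 of the 10 members were called (737 genes and 0 members at an unadjusted p below 0.05). The response of PAX6 in siRNF20 cells minus that in siLacZ cells was -0.47 in log2 (interval -1.30 to 0.36, adjusted p = 0.999), that of IRX3 -0.42 (-1.24 to 0.39) and that of PAX3 -0.83 (-1.87 to 0.20). GBX2 had 0.50 (-0.23 to 1.23) and OLIG3 -0.06 (-1.14 to 1.01), all with the same adjusted p. GBX2 and IRX3, each called in 1 background, were therefore not shown to respond differently. Which members were called in 1 background also depended on the block for the GF number, as given below. With all 8 arrays the same difference was 0.04 for PAX6, -0.31 for IRX3, -0.25 for PAX3, 0.58 for GBX2 and -0.39 for OLIG3, with adjusted p from 0.794 to 0.977.

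Other genes of the same patterning systems were read from 5 lists with 90 tested genes, also chosen with earlier results of these data known. In siRNF20 cells 4 rose and 3 fell with RA (7.78% called), and in siLacZ cells 4 rose and 2 fell (6.67% called). Of 15 Hedgehog pathway genes, CDON and BOC, co-receptors of Sonic hedgehog, rose in siRNF20 cells (log2 changes 2.43 and 1.52) and in siLacZ cells (2.65 and 1.54). PTCH1, the hedgehog receptor, rose in siRNF20 cells (1.20, adjusted p = 0.00659), and in siLacZ cells its log2 change was 0.70 (adjusted p = 0.154). The median over that list was 0.38 in siRNF20 cells and 0.47 in siLacZ cells.

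Of 10 other PAX and IRX genes, PAX5, a factor of the midbrain and hindbrain boundary and of B cells, fell in siRNF20 cells (log2 change -1.52, adjusted p = 0.00843) and in siLacZ cells (-1.74, adjusted p = 0.0129). IRX1 rose in siLacZ cells (1.33, adjusted p = 0.0319), and in siRNF20 cells its log2 change was 0.65 (adjusted p = 0.195). The medians over these 10 were -0.11 in siRNF20 cells and -0.15 in siLacZ cells. Of 22 anterior-posterior factors, FEZF2, a forebrain zinc finger factor, rose in siRNF20 cells (1.76) and in siLacZ cells (2.70), and OTX2, the forebrain and midbrain homeodomain factor opposite GBX2, fell in both (-1.37 in siRNF20 cells and -2.99 in siLacZ cells). The medians were 0.08 in siRNF20 cells and -0.10 in siLacZ cells.

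Of 21 other dorsal and roof plate genes 0 were called in either background, with medians of -0.01 in siRNF20 cells and -0.07 in siLacZ cells. The largest fall in siLacZ cells was that of ATOH1, at -2.48 (SE 0.88), with -1.85 (SE 0.72) in siRNF20 cells. The largest rise in siLacZ cells was that of ZIC1, a dorsal zinc finger factor, at 1.02 (SE 0.33), with 0.42 (SE 0.27) in siRNF20 cells. Of 22 other ventral and floor plate genes SPON1, a floor plate matrix protein, fell in siRNF20 cells (-1.42, adjusted p = 0.00319), 0 were called in siLacZ cells, and the medians were 0.14 in siRNF20 cells and -0.17 in siLacZ cells. SHH, the floor plate signal, had 0.35 in siRNF20 cells (adjusted p = 0.485) and -0.63 in siLacZ cells (adjusted p = 0.237). OLIG2, the bHLH factor of motor neuron progenitors, had -0.62 in siRNF20 cells (adjusted p = 0.442) and -0.60 in siLacZ cells (adjusted p = 0.545). For siRNF20 against siLacZ, 0 of the 90 genes were called in DMSO, in RA or in the interaction.

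By position, 18 tested genes that are not members neighbour the 10 members on their chromosomes. EPHA4, an ephrin receptor next to PAX3, fell with RA in siLacZ cells (log2 change -1.19, SE 0.25, adjusted p = 0.0331), and had -0.82 in siRNF20 cells (adjusted p = 0.066). The other neighbours were not called in either background. PAX6-AS1, the RNA gene beside PAX6, had 0.19 in siRNF20 cells and 0.23 in siLacZ cells, and ELP4 on the other side of PAX6 had 0.09 in siRNF20 cells and -0.28 in siLacZ cells. IRX6, the third gene of the Iroquois group on chromosome 16, had -0.94 in siRNF20 cells (adjusted p = 0.135) and -0.49 in siLacZ cells (adjusted p = 0.582).

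The genes most like PAX6 over the 7 arrays, among 5307 whose log2 values spanned at least 1, were PLXNA2, ENO3, GPM6A, CA4 and HOXD3, each with a Pearson r of 0.997. HOXD3, for example, was at 8.01 and 7.68 in siRNF20 cells with RA and 8.33 in siLacZ cells with RA, against 3.85 and 3.82 in siRNF20 cells with DMSO and 3.67 and 4.16 in siLacZ cells with DMSO. Those most like IRX3 were FZD6 (0.99), MACROH2A2 (0.988), ZHX1 (0.98), HOXD1 (0.978) and LAMP5 (0.977). FZD6, a Frizzled receptor, was at 9.01 and 9.12 in siRNF20 cells with RA and 9.15 in siLacZ cells with RA, against 7.93 and 8.18 in siRNF20 cells with DMSO and 7.70 and 7.96 in siLacZ cells with DMSO. The 7 arrays fall into RA and DMSO arrays and share them among all genes, so these r values describe likeness and carry no p.

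Markers of the cells that could be present moved with RA as well. Of 12 embryonal carcinoma markers 7 fell with RA in each background, and the median level of the 12 was 8.53 and 8.65 in siRNF20 cells with RA and 8.04 in siLacZ cells with RA, against 9.99 to 10.18 on the DMSO arrays. NANOG, a pluripotency homeodomain factor, was at 7.19 and 7.14 in siRNF20 cells with RA and 6.02 in siLacZ cells with RA, against 9.76 to 9.96 on the 4 DMSO arrays. In each background 5 of the 12 embryonal carcinoma markers were not called. Of 12 neuroepithelial markers 3 rose in siRNF20 cells (CDH2, SOX3 and NES) and 2 in siLacZ cells (CDH2 and MSI1), and the median level was 7.67 to 8.0 with RA, against 7.12 to 7.43 with DMSO. The other 9 in siRNF20 cells and 10 in siLacZ cells were not called. Among them PROM1 was lower with RA, at 8.15 to 8.39, against 8.69 to 8.98 with DMSO. Of 12 neuronal markers 3 rose in siRNF20 cells (ISL1, DCX and MAP2) and 2 in siLacZ cells (DCX and ISL1), with median levels of 6.22 to 6.41 with RA, against 5.78 to 5.98 with DMSO. The remaining 9 in siRNF20 cells and 10 in siLacZ cells were not called. Among these ELAVL3 was lower with RA, at 4.82 to 4.99, against 5.15 to 5.66 with DMSO.

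Of 11 neural crest markers, TFAP2A rose and ETS1 and ERBB3 fell in each background, and the median level was 5.59 to 5.98 with RA, against 5.74 to 6.33 with DMSO. Of 8 skeletal muscle markers, listed because PAX3 and PAX7 also act in muscle precursors, 0 were called, and their median level was 5.23 to 5.66 with RA, against 5.15 to 5.64 with DMSO. Of 8 pancreatic endocrine markers SST, a neuropeptide gene also active in neurons, rose in both (log2 changes 1.68 in siRNF20 cells and 3.02 in siLacZ cells), and the median level was 5.84 to 6.17 with RA, against 5.63 to 6.04 with DMSO. The files carry no detection call, so a low level cannot be told from background, and the part of these marker shifts in the members' values was not tested.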

How the data were processed

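The authors deposited 1 linear intensity per probe set and array, the smallest being 2. Their background correction, normalization, tools and genome build are not given in the sources used here. Per the labels' protocols, RNA was extracted with RNeasy columns and given a biotin label by the standard Affymetrix procedure. Of 1384231 rows, 354600 have 1 gene symbol in the platform annotation and were used, those with several (14898) or none (1014733) were left out, and updated symbols gave 19426 genes. From the deposited intensities log2 values were taken, with no pseudocount and no further normalization. Rows whose mean over 7 arrays was at or below the median row mean of 3.97 in log2 counted as dim and did not enter. Genes took the median over the rows that remained, which gave 18732 genes.

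limma 3.58.1 in R 4.3.3 was fitted to 4 group means on 7 arrays, with an intensity trend and Benjamini-Hochberg adjustment over the 18732 genes, and the fit was tested on simulated data. An exact permutation test (two-sided) of 2 against 2 arrays cannot go below 0.333, so no single-gene permutation test was made. Precision is limited by the number of arrays. The upper quartile of intensity was 54.9 to 55.1 on the 7 arrays and 59.8 on the array left out. The labels call the arrays biological duplicates without saying what GF117 and GF120 mark, so p-values measure the spread between these arrays.

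The members and gene lists were chosen with earlier results of these data known. All 10 members are named in every comparison, with RNF20, the 5 genes most like PAX6 and IRX3, up to 4 called genes of each list and comparison, and, chosen after their values were seen, the neighbours, a few uncalled list genes and the 2 genes called in RA. The motifs were chosen with the sequences in view. Alternatives were all 8 arrays, the array left out in place of its duplicate, the GF number as a block, the mean over rows, no filter or a filter at the upper quartile, an offset of 16, quantile normalization, no intensity trend, and each array left out in turn.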

Additional observations from a re-analysis of the deposited data

How the results depend on the processing

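PAX6 was called in 14 of 15 alternatives in both backgrounds, with log2 changes of 2.27 to 3.28 in siRNF20 cells and 2.58 to 3.98 in siLacZ cells. OLIG3 was lower with RA in all 15, called in 13 in siRNF20 cells and in 11 in siLacZ cells. GBX2 was called in 12 of 15 in siRNF20 cells and 1 in siLacZ cells, and IRX3 in 3 in siRNF20 cells and in 11 in siLacZ cells, each with 1 sign throughout. PAX3 was higher with RA in all 15, called in 0 in siRNF20 cells and in 4 in siLacZ cells. Over all members and alternatives, 633 log2 changes kept both sign and side of the threshold, and 83 changed sign, called or not. With the sign kept, 14 came to pass and 15 ceased to. NKX2-2 had no value at the stricter filter, which left none of its probe sets.

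With all 8 arrays 0 genes and 0 members were called in each comparison, where 7 arrays called 2 genes for siRNF20 in RA. The values that changed sign were the following. For RA in siLacZ cells PAX7 had 0.74, NKX2-2 0.27 and DBX1 0.57. In RA, for siRNF20 over siLacZ, PAX6 had 0.03, PAX7 -1.18, NKX2-2 -0.19 and DBX1 -0.24. For the interaction PAX6 had 0.04 and DBX1 -0.37. With the GF117 array in place of its duplicate, 13323 genes and 6 members were called for RA in siLacZ cells, 12835 and 5 for siRNF20 in RA, and 11416 and 3 for the interaction. For RA in siLacZ cells PAX7 had 1.70, NKX2-2 0.78 and DBX1 1.28. In RA, for siRNF20 over siLacZ, PAX6 had 0.08, PAX3 0.19, PAX7 -2.14, IRX3 0.03, NKX2-2 -0.69 and DBX1 -0.94. For the interaction PAX6 had 0.11, PAX3 0.33 and DBX1 -1.07. These counts rest on the array that stood apart.

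With the GF number as a block, called genes numbered 1959 for RA in siRNF20 cells, 1792 for RA in siLacZ cells, 232 for siRNF20 in RA, 1 for siRNF20 in DMSO and 4 for the interaction. In the block fit 5 members passed for RA in siLacZ cells, PAX3 (1.29, adjusted p = 0.0265) and GBX2 (0.79, adjusted p = 0.0379) being added, and IRX3 passed in siRNF20 cells (0.93, adjusted p = 0.00427). In that fit OLIG3 had 0.05 for siRNF20 in RA and 0.06 for the interaction. The labels do not say what the numbers mark. Deviations of arrays with the same number correlated at 0.297 to 0.364 among the 3 groups other than RA siLacZ. With only 2 numbers and no label for them they were not taken as a pairing, and the array that stood apart leaves the RA siLacZ group without a usable check.

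The mean over rows changed these signs. For RA in siRNF20 cells PAX7 had 0.06. In RA, for siRNF20 over siLacZ, PAX7 had -0.01 and IRX3 0.19. For siRNF20 in DMSO PAX6 had 0.29, PAX3 0.16, PAX7 -0.17 and GBX2 0.01. For the interaction PAX7 had 0.16. Without the filter on dim rows, these did. For RA in siRNF20 cells PAX7 had 0.06. For RA in siLacZ cells NKX6-1 had 0.01 and DBX1 0.34. For siRNF20 in DMSO PAX6 had 0.23, PAX3 0.19 and PAX7 -0.09. For the interaction PAX7 had 0.47. At the stricter filter OLIG3 was not called in siLacZ cells (-1.55, adjusted p = 0.075), and more signs changed. For RA in siRNF20 cells PAX7 had 0.05, IRX5 -0.14 and DBX1 -0.13. For RA in siLacZ cells DBX1 had 0.03. In RA, for siRNF20 over siLacZ, PAX3 had 0.02 and IRX3 0.08. For siRNF20 in DMSO PAX6 had 0.07, PAX3 0.17 and PAX7 -0.23. For the interaction PAX7 had 0.46, OLIG3 0.11 and DBX1 -0.16. With quantile normalization the changes were small. For RA in siLacZ cells NKX6-1 had 0.02. In RA, for siRNF20 over siLacZ, PAX7 had -0.01. For siRNF20 in DMSO OLIG3 had 0.02 and GBX2 0.01. Without the intensity trend 456 genes were called for RA in siLacZ cells and 1 for siRNF20 in RA, and IRX3 was not (adjusted p = 0.0593). For siRNF20 in RA the mean, no filter, the stricter filter, the offset and quantile normalization each called 0 genes.

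Leaving out each array in turn called 324 to 589 genes for RA in siRNF20 cells, 317 to 970 for RA in siLacZ cells, 0 to 2 for siRNF20 in RA and 0 to 1 for siRNF20 in DMSO. Called members numbered 1 to 3 in siRNF20 cells and 1 to 4 in siLacZ cells, where the low count came without a DMSO array of that background. For RA in siRNF20 cells the values ran from -0.89 to 0.39 for NKX2-2 and from -0.10 to 0.56 for DBX1. For RA in siLacZ cells the values ran from -0.13 to 0.34 for DBX1, from -0.37 to 0.02 for PAX7 and from -0.09 to 0.09 for NKX6-1. In RA, for siRNF20 over siLacZ, the values ran from -0.26 to 0.01 for IRX5, from -0.46 to 0.30 for OLIG3 and from -0.23 to 0.22 for PAX7. For siRNF20 in DMSO the values ran from -0.05 to 0.19 for PAX6, from -0.01 to 0.40 for IRX5, from -0.13 to 0.10 for OLIG3, from -0.24 to 0.60 for NKX2-2, from -0.24 to 0.17 for GBX2, from -0.24 to 0.20 for PAX3, from -0.02 to 0.47 for IRX3 and from -0.07 to 0.44 for DBX1. For the interaction the values ran from -0.28 to 0.66 for NKX2-2, from -0.67 to 0.01 for PAX7 and from -0.44 to 0.32 for OLIG3. Without changing sign, NKX2-2 ran from -1.55 to -0.16 for RA in siLacZ cells, and PAX3 from -1.27 to -0.35 in RA for siRNF20 over siLacZ. The filter on dim rows was taken anew for each set of arrays, so these ranges mix a change of arrays with a change of probe sets. Other causes of these changes were not tested. The block changed no other call of a member. Beyond the 1 RA siLacZ array, precision is limited by duplicate arrays and by probe sets near the floor, and members whose differences are under the spread of duplicates have no settled direction.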
